A study of Mus musculus with 24 samples.

Results

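A set of 10 genes of the hypoxia response were followed through retinal organoids made from mouse ES cells (pluripotent embryonic stem cells): the HIF alpha subunits Hif1a and Epas1, the oxygen-sensing hydroxylases Egln1 and Egln3, and the targets Car9, Bnip3, Ndufa4l2, Vegfa, Adm and Ankrd37, none of which encodes a glycolytic enzyme. They are 10 of the 33846 genes in the deposited gene table, found by their symbols. They were chosen by measured values of this series, namely the lower levels of hypoxia genes in rotating than in static culture, so every rotating against static value below is a description without a test. Changes with time inside a culture, and the difference between dissected and intact static organoids, were tested. These contrasts were not used to choose the genes, but they share libraries with the contrasts that were. A gene chosen as low in rotation on the first day can rise from there by that choice alone. The tests are therefore not independent of the choice. All 10 were among the 16792 genes that passed the filter on low counts, which is no support for any pattern. RNA was measured by poly(A) RNA sequencing of whole organoids.

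HIF factors are dimers of an alpha subunit, such as HIF-1 alpha (Hif1a) or HIF-2 alpha (Epas1), and a constitutive beta subunit. In oxygenated cells the EGLN prolyl hydroxylases mark the alpha subunit for degradation by the VHL ubiquitin ligase, and when oxygen is scarce the dimer binds short motifs in DNA and raises transcription of genes for oxygen supply, metabolism and pH control. The control of the alpha subunits is therefore largely at the level of protein, which these data do not hold. In the developing retina, a tissue with a high oxygen demand, the pathway is best known for setting VEGF output and with it the growth of blood vessels.

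The study followed 3 ways of keeping the organoids. RWB is a rotating-wall bioreactor holding optic cups dissected at day 10 of differentiation, sampled at days 18, 22 and 25 (2, 3 and 3 libraries). SSCd is static suspension culture of optic cups dissected in the same way, sampled at days 18, 22 and 28 (3 libraries each). SSCi is static suspension culture of intact organoids, sampled at days 18, 25 and 32 (2, 2 and 3 libraries). All cultures received N2, 9-cis retinal, taurine and IGF1. Serum, B27 and non-essential amino acids were added from day 18 in RWB and SSCd but from day 26 in SSCi, so time and this change of medium cannot be told apart from D18 onwards in RWB and SSCd or from D25 to D32 in SSCi. At day 25 culture and medium cannot be told apart, and the labels do not say whether D18 libraries of RWB and SSCd were taken before the addition. The stem cells were of wild-type background, from an Nrl-GFP transgenic clone and the R1 clone, and the labels do not say which library came from which clone. Nothing in the labels says that numbered replicates came from separate cultures, so the spread between them, and every p-value here, may be technical.

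Library totals ran from 13284632 to 21604446 estimated counts. Levels are given as CPM, counts relative to the TMM-scaled library size, always in the order of the replicate numbers. Of the 10 neural retina markers, 9 or 10 averaged above 1 CPM in each group. Mitochondrial transcripts took 8.26% to 13.1% of counts in 4 libraries, each numbered 1 (RWB D22, RWB D25, SSCd D18 and SSCd D22), and 2.46% to 5.76% in the others. The summed level of 10 mesenchyme markers was 7070 CPM in SSCi D18 replicate 1 against 32.1 CPM in replicate 2 of that group. In bulk RNA, fewer cells of a type and less RNA per cell cannot be told apart.

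HIF dimers bind DNA at a core of ACGTG or GCGTG, so the start regions of the genes were read for these letters on both strands, in the 250 bases before each start (RefSeq, GRCm38.p6). A promoter was found for 8 of the 10 genes; Epas1 and Ndufa4l2 had none. Bnip3 held 5 matches and Ankrd37 held 4, where 2.58% of all 32851 promoter windows held 4 or more. G and C made up 72.4% of the bases read for Bnip3 and 67.6% of those for Ankrd37. The shares over all windows are not matched for this, so they do not show that the 2 promoters are rich in matches for their base content. Hif1a held 3, Egln1 and Adm held 2, and Egln3 and Car9 held 1, where 38.6% of all windows held at least 1 and 16.7% held 2 or more. Vegfa has 2 promoter windows: the one at the start 46032377, near that of its dominant transcript, held 0 matches, and the one at the internal start 46025163 held 2. The same letters read as CACGTG count once on each strand. The matches lying outside annotated exons are printed, with that of Car9, on the strand of the gene and with the matched letters in capitals (CACGT and CACGC are the motifs read on the other strand).
Bnip3, chr7:138909520-138909643, minus strand: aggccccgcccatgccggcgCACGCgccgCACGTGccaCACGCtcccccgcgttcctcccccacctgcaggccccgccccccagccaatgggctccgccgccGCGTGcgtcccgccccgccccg
Ankrd37, chr8:45999978-46000100, minus strand: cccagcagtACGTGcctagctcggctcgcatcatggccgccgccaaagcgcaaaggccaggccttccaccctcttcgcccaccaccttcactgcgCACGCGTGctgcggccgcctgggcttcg
Hif1a, chr12:73907712-73907821, plus strand: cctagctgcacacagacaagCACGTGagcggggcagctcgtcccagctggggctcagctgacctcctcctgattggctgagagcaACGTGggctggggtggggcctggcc
Adm, chr7:110627547-110627627, plus strand: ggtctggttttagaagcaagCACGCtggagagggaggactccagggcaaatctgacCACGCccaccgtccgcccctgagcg
Egln1, chr8:124949356-124949400, minus strand: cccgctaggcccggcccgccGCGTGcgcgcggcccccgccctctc
Egln3, chr12:54204079-54204123, minus strand: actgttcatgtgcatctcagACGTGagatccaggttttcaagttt
Car9, chr4:43506998-43507022, plus strand: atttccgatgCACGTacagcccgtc
The match in Car9 lies 18 bases before the RefSeq start and inside an annotated exon. In Bnip3 the 5 matches lie between 117 and 35 bases before the start, and in Ankrd37 those printed lie between 241 and 152. A match is a run of letters and not a measured binding site.

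Most of the hydroxylases and targets were lower in rotation than in static culture, while the messages for the HIF alpha subunits Hif1a and Epas1 were not. At day 18, 7 of the 10 genes were lower in RWB than in SSCd with no overlap between libraries, where 13.4% of all genes tested were. At day 22 this held for 6 of 10 against 10.4% of all genes. Against intact organoids it held for 8 of 10 at day 18 and for 6 of 10 at day 25, where 20.5% and 19.6% of all genes did so. The median log2 fold change of the 10 genes was -1.29, -1.64, -2.28 and -0.85 in that order, beside a median over all genes tested of 0.00, 0.00, 0.00 and 0.04. These counts follow from how the genes were chosen and nothing is read from them. Both day 18 comparisons use the same RWB D18 libraries. RWB cups were dissected and SSCi organoids were intact, so rotation and dissection cannot be told apart in the comparisons with SSCi. At day 25 the medium differed as well, and at day 18 it may have differed. Egln1, Egln3, Car9, Vegfa and Ndufa4l2 were lower without overlap in all 4 comparisons. The share of all genes doing so in all 4 was not computed. This too follows from how the genes were chosen, and nothing is read from it. The summed level of 7 surface epithelium markers was also lower in RWB without overlap on each shared day: 14.3 to 22.6 CPM against 31 to 41 in SSCd and 23.8 to 33.5 in SSCi at D18, 8.19 to 24.7 against 40.8 to 67 at D22, and 8.28 to 9.88 against 45 to 50.8 at D25. Krt18 was the most abundant of them in nearly every library, and the defining Krt14 was at 0 in every library of all 9 groups. Endothelial markers summed to 8.03 to 8.9 CPM in RWB D18 against 12 to 15.9 in SSCd and 12.5 to 31 in SSCi, and to 4.49 to 7.3 in RWB D25 against 9.16 to 11.8 in SSCi D25. The part of these cells in the rotation values was not tested.

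**Figure D1:**
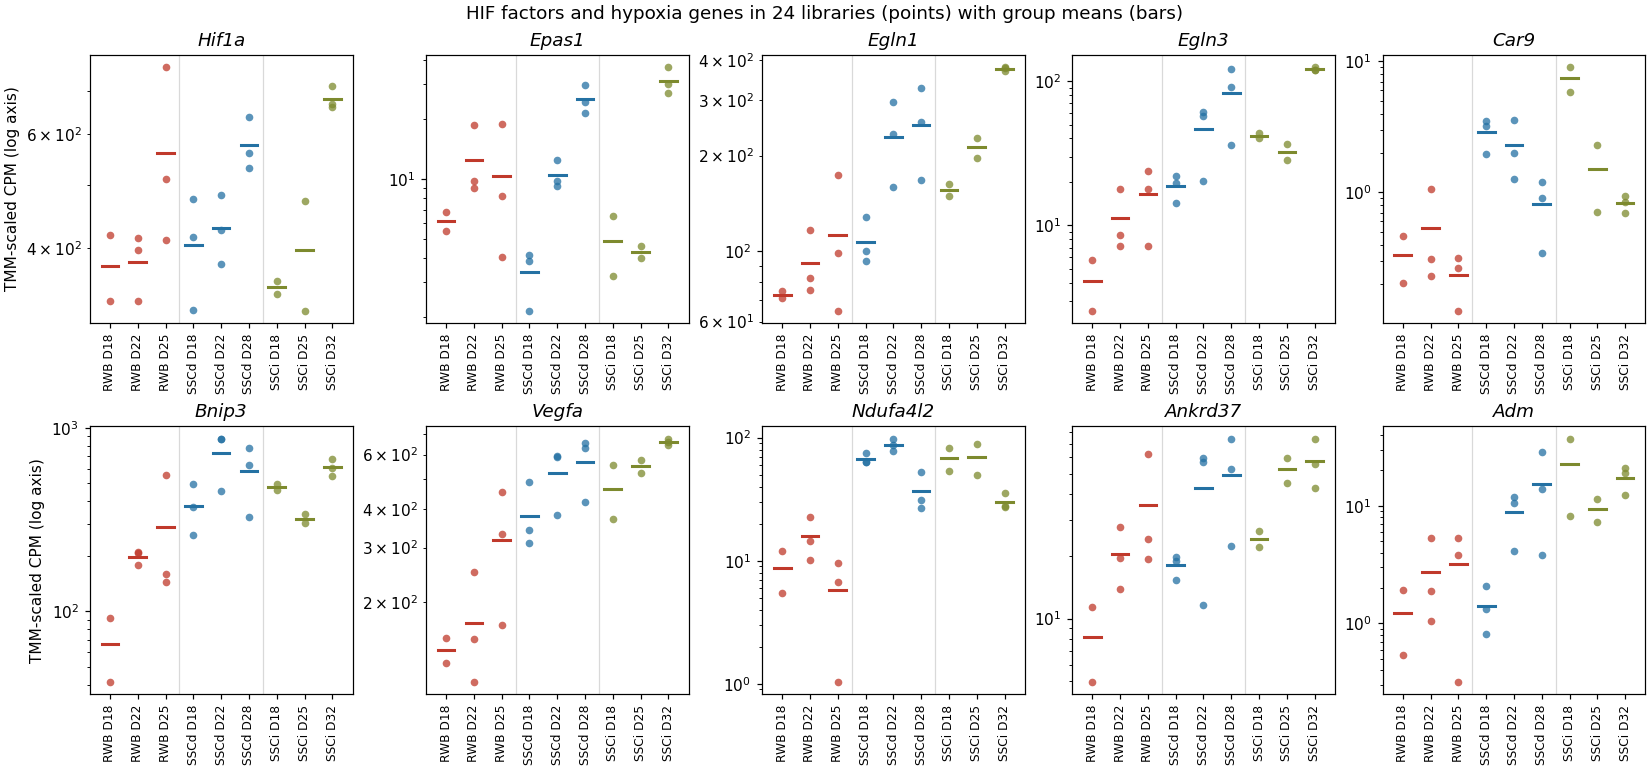
TMM-scaled CPM (log axis) of the 10 genes in 24 libraries, by culture and day; points are libraries and bars are group means (red RWB, blue SSCd, green SSCi). Ndufa4l2 lies at 22.6 CPM or below in every RWB library and at 26.8 CPM or above in every static library, while the Hif1a libraries of all 3 cultures span 320 to 761 CPM.

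**Figure D2:**
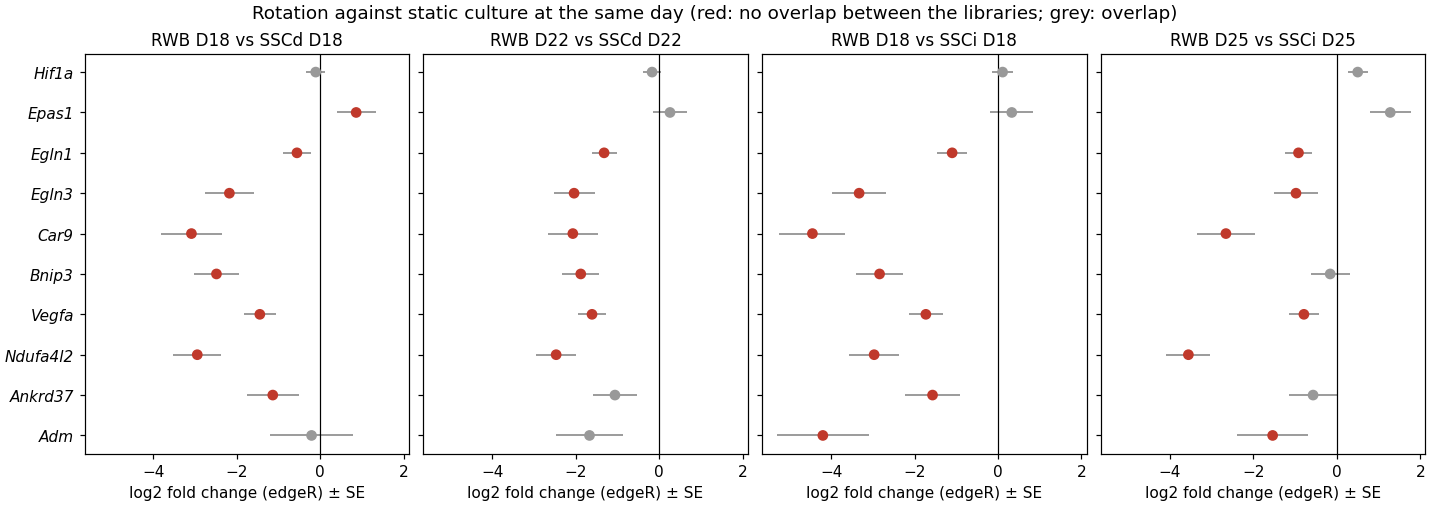
Log2 fold change of RWB against static culture on the same day, with its standard error, for the 10 genes in 4 comparisons; red points mark genes whose libraries did not overlap and grey points those whose libraries did. Hif1a lies between -0.17 and 0.50 and Epas1 between 0.26 and 1.28, and Car9 and Ndufa4l2 lie between -4.45 and -2.07.

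Hif1a (ENSMUSG00000021109; chromosome 12, 73901375 to 73947530, plus strand) encodes HIF-1 alpha. Its level was 331 and 419 CPM in RWB D18, 414, 397 and 331 in RWB D22, and 761, 511 and 411 in RWB D25. SSCd gave 476, 416 and 321 at D18, 483, 426 and 378 at D22, and 637, 560 and 531 at D28. SSCi gave 340 and 356 at D18, 473 and 320 at D25, and 711, 660 and 668 at D32. Rotating and static libraries overlapped on every shared day, and the last static day stood above the first without overlap. The rotation log2 fold changes were -0.11 ± 0.23, -0.17 ± 0.21, 0.11 ± 0.26 and 0.50 ± 0.24 (SE), in the order SSCd D18, SSCd D22, SSCi D18 and SSCi D25. In SSCi, Hif1a rose from D18 to D32 by 0.97 ± 0.24 on the log2 scale (edgeR adjusted p = 0.00361). It rose from D25 to D32 by 0.78 ± 0.24 (edgeR adjusted p = 0.0497), a call lost without any 1 of the 5 libraries (0.53 without SSCi D25 replicate 2 to 1.03 without SSCi D25 replicate 1, adjusted p 0.0754 to 0.511). The D18 to last day values in RWB and SSCd were 0.58 ± 0.24 and 0.51 ± 0.21 (edgeR adjusted p = 0.0743 and 0.0662). They passed without RWB D25 replicate 3 (0.76, adjusted p 0.0215) and without SSCd D18 replicate 1 (0.64, 0.0498), respectively. The gene overlaps Gm15283 on the opposite strand and Gm49321 on its own strand, and whether counting used strand is not given in the sources used here.

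Epas1 (ENSMUSG00000024140; chromosome 17, 86753700 to 86833410, plus strand) encodes HIF-2 alpha, best known from endothelium and a few other cell types. It was scarce at D18, with 6.84 and 5.46 CPM in RWB, 4.12, 3.84 and 2.16 in SSCd and 6.52 and 3.22 in SSCi. The middle days gave 8.99, 9.79 and 18.7 CPM in RWB D22, 9.76, 12.4 and 9.22 in SSCd D22, and 4.01 and 4.56 in SSCi D25. The last days gave 4.04, 8.16 and 19.0 CPM in RWB D25, 29.7, 24.5 and 21.6 in SSCd D28, and 36.7, 27.1 and 30.2 in SSCi D32. The last static days stood clear of all earlier days, whereas RWB D25 replicates were spread over the range of the earlier ones. Per kilobase of the dominant transcript, Epas1 averaged 0.612 to 5.68 CPM over the groups against 73.6 to 144 for Hif1a. Epas1 was the exception to the direction for which the genes were chosen: its rotation log2 fold changes were 0.86 ± 0.47, 0.26 ± 0.41, 0.33 ± 0.51 and 1.28 ± 0.49 (SE), and at day 18 its RWB libraries stood above those of SSCd, as for 12% of all genes. The D22 value was -0.16 without RWB D22 replicate 3, and the D25 value was 0.51 without RWB D25 replicate 3. Against SSCi D18 it was 0.93 without SSCi D18 replicate 1 and -0.03 without SSCi D18 replicate 2. In SSCd it rose by 1.63 ± 0.43 from D18 to D22 and by 2.90 ± 0.44 from D18 to D28 (edgeR adjusted p = 0.0157 and 3.73e-05). The first of these was lost when either SSCd D18 replicate 3 (1.39, adjusted p 0.076) or SSCd D22 replicate 2 (1.46, adjusted p 0.0546) was left out. In SSCi it rose by 2.87 ± 0.52 from D25 to D32 and by 2.68 ± 0.51 from D18 to D32 (edgeR adjusted p = 0.00128 and 0.000333), and all of these 3 later calls were kept without each library in turn.

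The summed level of 10 endothelial markers was 7.47 to 8.75 CPM in SSCd D28 and 6.20 to 8.39 in SSCi D32, against 12 to 15.9 in SSCd D18 and 12.5 to 31.0 in SSCi D18. Cdh5, a defining endothelial cadherin, was at 0 in every library of all 3 SSCi days, SSCd D18, SSCd D22 and RWB D18, and at most 0.239 CPM in SSCd D28. The part of endothelial cells in the Epas1 values was not tested.

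Egln1 (ENSMUSG00000031987; chromosome 8, 124908587 to 124949324, minus strand) encodes PHD2, the main hydroxylase acting on HIF-1 alpha, and is itself a HIF target. RWB gave 74.8 and 71.1 CPM at D18, 82.2, 75.4 and 117 at D22, and 64.9, 174 and 98.7 at D25. SSCd gave 93.2, 128 and 100 at D18, 295, 234 and 159 at D22, and 168, 255 and 326 at D28. SSCi gave 149 and 163 at D18, 197 and 228 at D25, and 369, 378 and 380 at D32. Every rotating library lay below every static library of the same day. In RWB against static culture, Egln1 had log2 fold changes of -0.56 ± 0.33, -1.32 ± 0.30, -1.10 ± 0.36 and -0.92 ± 0.32 (SE). Egln1 rose in SSCd by 1.10 ± 0.30 from D18 to D22 and by 1.22 ± 0.30 from D18 to D28 (edgeR adjusted p = 0.0183 and 0.00324), and in SSCi by 1.26 ± 0.34 from D18 to D32 (edgeR adjusted p = 0.0064). The D22 call was lost when SSCd D18 replicate 1 (1.00, adjusted p 0.0724), SSCd D18 replicate 3 (1.05, 0.0641) or SSCd D22 replicate 1 (0.88, 0.105) was left out, and the SSCi call without SSCi D18 replicate 1 (1.18, 0.059). In RWB the D18 to D25 value was 0.63 ± 0.33 (edgeR adjusted p = 0.172), and 0.88 with an adjusted p of 0.0423 without RWB D25 replicate 1, the library with 13.1% mitochondrial counts.

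Egln3 (ENSMUSG00000035105; chromosome 12, 54178981 to 54203860, minus strand) encodes PHD3, the hydroxylase whose message is the more strongly induced by low oxygen. Its level was 5.71 and 2.56 CPM in RWB D18, 8.53, 7.14 and 17.9 in RWB D22, and 7.22, 24 and 17.9 in RWB D25. It was 22.1, 19.8 and 14.4 in SSCd D18, 61.1, 57.1 and 20.4 in SSCd D22, and 35.9, 90.5 and 121 in SSCd D28. SSCi held 40 and 43.4 at D18, 28.5 and 36.4 at D25, and 125, 119 and 119 at D32. Again no rotating library reached a static one of its day. For Egln3 the rotating against static log2 fold changes were -2.18 ± 0.59, -2.04 ± 0.49, -3.33 ± 0.64 and -0.98 ± 0.52 (SE).

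Egln3 was called up from D18 to the last day in each of the 3 cultures. The change was 1.99 ± 0.58 in RWB, 2.14 ± 0.48 in SSCd and 1.53 ± 0.54 in SSCi (log2, edgeR adjusted p = 0.0142, 0.00176 and 0.0319). The SSCd call was kept without each library in turn. The RWB call was lost when RWB D18 replicate 2 (1.50, adjusted p 0.18) or RWB D25 replicate 2 (1.61, 0.0552) was left out. The SSCi call was lost without any 1 of its 5 libraries (1.46 to 1.64, adjusted p 0.0552 to 0.152). Egln3 also rose from SSCi D25 to D32 by 1.90 ± 0.55 (edgeR adjusted p = 0.0381), likewise lost without any 1 of the 5 libraries (1.67 to 2.09, adjusted p 0.0761 to 0.242). From SSCd D18 to D22 the value was 1.30 ± 0.47 (edgeR adjusted p = 0.0823), and 1.66 with an adjusted p of 0.0291 without SSCd D22 replicate 3.

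Car9 (ENSMUSG00000028463; chromosome 4, 43506966 to 43513729, plus strand) encodes carbonic anhydrase IX, a membrane enzyme of pH control and a widely used marker of hypoxic tissue. It was the scarcest of the 10, with 703 estimated counts over all libraries. RWB gave 0.465 and 0.202 CPM at D18, 0.229, 0.308 and 1.06 at D22, and 0.317, 0.125 and 0.267 at D25, which rest on 2 to 17 counts a library. SSCd gave 3.24, 3.50 and 1.95 at D18, 2.01, 3.59 and 1.27 at D22, and 0.913, 1.20 and 0.342 at D28. SSCi gave 9.05 and 5.87 at D18, 0.704 and 2.31 at D25, and 0.696, 0.839 and 0.946 at D32. Rotating libraries lay below static ones on each shared day. SSCi was highest at D18, while the SSCd D18 and D22 libraries overlapped. Rotating against static culture, Car9 had log2 fold changes of -3.09 ± 0.74, -2.07 ± 0.60, -4.45 ± 0.79 and -2.66 ± 0.70 (SE). With the authors' transcript counts summed to the gene, the values against SSCd D18, SSCi D18 and SSCi D25 were -2.10, -3.24 and -1.80 instead. The D22 value was -3.05 without RWB D22 replicate 3, and the D25 value was -3.31 without SSCi D25 replicate 1 and -1.55 without SSCi D25 replicate 2. Car9 fell with time in the static cultures: by 1.81 ± 0.57 on the log2 scale from SSCd D18 to D28 (edgeR adjusted p = 0.019), by 2.29 ± 0.69 from SSCi D18 to D25 (0.023) and by 3.16 ± 0.62 from SSCi D18 to D32 (0.000485). The last of these was kept without each library in turn. The SSCd fall was lost without SSCd D18 replicate 2 (-1.65, adjusted p 0.0628), without SSCd D28 replicate 3 (-1.45, 0.0855) and with summed transcripts (-1.08, 0.139), and the SSCi D25 fall without SSCi D18 replicate 1 (-1.92, 0.148) or SSCi D25 replicate 1 (-1.60, 0.226). Gm12454 overlaps the gene on the opposite strand.

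Bnip3 (ENSMUSG00000078566; chromosome 7, 138890836 to 138909519, minus strand) encodes a mitochondrial outer membrane receptor for mitophagy. It started low in rotation, with 91.7 and 41.2 CPM at RWB D18, then 179, 210 and 209 at D22 and 145, 555 and 161 at D25. SSCd gave 494, 369 and 260 at D18, 875, 876 and 454 at D22, and 329, 631 and 781 at D28. SSCi gave 458 and 492 at D18, 302 and 338 at D25, and 544, 681 and 607 at D32. The rotating libraries were lower without overlap at D18 and D22, and at D25 replicate 2 alone exceeded the SSCi libraries. Bnip3 in rotation differed by log2 fold changes of -2.49 ± 0.53, -1.88 ± 0.44, -2.84 ± 0.56 and -0.16 ± 0.47 (SE), the last being -1.07 without RWB D25 replicate 2 and 0.13 without RWB D25 replicate 3. In RWB, Bnip3 rose by 1.58 ± 0.51 from D18 to D22 (edgeR adjusted p = 0.049) and by 2.11 ± 0.52 from D18 to D25 (edgeR adjusted p = 0.00415). The first was lost without RWB D18 replicate 2 (1.10, adjusted p 0.46) or any of the 3 RWB D22 libraries (1.54 to 1.66, adjusted p 0.0797 to 0.0948), and the second without RWB D18 replicate 2 (1.61, 0.0929); without RWB D25 replicate 2 it was 1.20. Transcripts of Gm45507, which lies antisense to Bnip3, and of 5 further loci match the Bnip3 message over at least 200 bases at 90% identity or more, so its counts are uncertain.

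Ndufa4l2 (ENSMUSG00000040280; chromosome 10, 127514967 to 127517154, plus strand) encodes a paralog of the respiratory chain protein NDUFA4 that hypoxia induces and that lowers respiration. It separated the cultures most evenly. RWB gave 11.9 and 5.46 CPM at D18, 10.2, 14.5 and 22.6 at D22, and 1.03, 9.66 and 6.68 at D25. SSCd gave 62.8, 75.6 and 63.4 at D18, 86.9, 98.3 and 78.3 at D22, and 26.8, 30.9 and 52.3 at D28. SSCi gave 53.6 and 82.3 at D18, 49.7 and 88.8 at D25, and 27.3, 35.6 and 27.6 at D32. No rotating library of any day reached a static library of any day. Log2 fold changes of Ndufa4l2 in rotation were -2.95 ± 0.58, -2.47 ± 0.48, -2.97 ± 0.60 and -3.56 ± 0.53 (SE). It was the 1 gene of the 10 with no call from D18 to the last day in any culture, with values of -0.57 ± 0.53, -0.88 ± 0.46 and -1.17 ± 0.50 in RWB, SSCd and SSCi (edgeR adjusted p = 0.462, 0.147 and 0.0736). Without the 4 libraries of high mitochondrial share, the SSCd and SSCi values were -0.95 and -1.20 with adjusted p of 0.0447 and 0.0109. Ndufa4 itself, the paralog in the respiratory chain, rose from RWB D18 to D25 from 193 ± 52.1 to 775 ± 680 CPM (SD, n = 2 and 3; log2 2.01 ± 0.60, edgeR adjusted p = 0.0162).

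Vegfa (ENSMUSG00000023951; chromosome 17, 46016993 to 46032369, minus strand) encodes the main growth factor for blood vessels and is a classical HIF target. RWB gave 153 and 127 CPM at D18, 110, 152 and 250 at D22, and 168, 454 and 333 at D25. SSCd gave 343, 310 and 488 at D18, 381, 592 and 591 at D22, and 420, 631 and 652 at D28. SSCi gave 370 and 556 at D18, 523 and 576 at D25, and 658, 676 and 645 at D32. The rotating libraries lay below the static ones on every shared day. Vegfa in rotation had log2 fold changes of -1.45 ± 0.38, -1.61 ± 0.33, -1.73 ± 0.40 and -0.79 ± 0.35 (SE). In RWB, Vegfa rose from D18 to D25 by 1.19 ± 0.37 (edgeR adjusted p = 0.0204), a call lost without RWB D18 replicate 1 (1.33, adjusted p 0.0637), RWB D18 replicate 2 (1.03, 0.164) or RWB D25 replicate 2 (0.84, 0.101). From D22 to D25 the change was 0.90 ± 0.32 (edgeR adjusted p = 0.121); replicate numbers pair the libraries of these 2 days, and with the number as a block the change was 0.91 (edgeR adjusted p = 0.0362). It also passed without RWB D22 replicate 3 (1.28, adjusted p 0.0442) or RWB D25 replicate 1 (1.18, 0.0274). Static cultures gave 0.58 ± 0.32 in SSCd and 0.51 ± 0.36 in SSCi from D18 to the last day (edgeR adjusted p = 0.174 and 0.289). Summed pigment epithelium markers ranged from 36.2 to 1030 CPM over the RWB D25 libraries and from 9.30 to 356 CPM over the static libraries. Ttr was the most abundant of these markers in the libraries with 1030 and 356 CPM. Rpe65 was at 0 in every library of RWB D22, SSCd D18, SSCd D22 and SSCi D25. The part of pigment epithelium in the Vegfa values was not tested.

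Adm (ENSMUSG00000030790; chromosome 7, 110627661 to 110629820, plus strand) encodes adrenomedullin, a secreted vasodilator peptide. At D18 it held 1.93 and 0.540 CPM in RWB, 0.809, 2.09 and 1.33 in SSCd, and 37.3 and 8.13 in SSCi. The middle days gave 1.90, 1.05 and 5.30 CPM in RWB D22, 11.8, 10.6 and 4.13 in SSCd D22, and 7.25 and 11.5 in SSCi D25. The last days gave 0.317, 5.36 and 3.85 CPM in RWB D25, 3.82, 13.8 and 28.5 in SSCd D28, and 20.8, 19.0 and 12.3 in SSCi D32. Adm was high in intact organoids at D18, when both dissected cultures were low and overlapped. The Adm values of RWB against SSCi mix rotation with dissection, and at D25 and possibly D18 with medium. The parts of each cannot be told apart. Adm in rotation had log2 fold changes of -0.21 ± 0.99 and -1.67 ± 0.81 against SSCd, and -4.20 ± 1.10 and -1.54 ± 0.86 against SSCi (SE), the D18 value against SSCi being -2.71 without SSCi D18 replicate 1, -4.86 without SSCi D18 replicate 2, -5.35 without RWB D18 replicate 1 and -3.49 without RWB D18 replicate 2. The D22 value was -2.58 without RWB D22 replicate 3. Against SSCd D18 it stood at -1.41 when RWB D18 replicate 1 was left out and at 0.44 when replicate 2 was. Gm28863 overlaps the whole gene on the opposite strand.

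In SSCd, Adm rose by 2.62 ± 0.85 from D18 to D22 (edgeR adjusted p = 0.0484) and by 3.42 ± 0.87 from D18 to D28 (edgeR adjusted p = 0.00427). Replicate numbers pair SSCd D18 with D22, and with the number as a block the D22 change was 2.71 (edgeR adjusted p = 0.0584). It was also lost without SSCd D22 replicate 1 or 2 or any of the SSCd D18 libraries (2.36 to 3.03, adjusted p 0.0946 to 0.151), while the D28 call was kept without each library in turn. The change from SSCd D18 to D28 exceeded that from SSCi D18 to D32 by 3.81 ± 1.18, which missed the threshold over all genes (edgeR, interaction term, adjusted p = 0.147). In that interaction test no member was called, 1 had an unadjusted p under 0.05, and 1.27% of all genes were called.

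Ankrd37 (ENSMUSG00000050914; chromosome 8, 45996902 to 46005707, minus strand) encodes a small ankyrin repeat protein and is a known HIF-1 target. RWB gave 11.4 and 4.93 CPM at D18, 13.9, 27.8 and 19.7 at D22, and 24.2, 62.1 and 19.5 at D25. SSCd gave 19.0, 19.9 and 15.3 at D18, 57.2, 59.6 and 11.6 at D22, and 22.5, 73.7 and 52.7 at D28. SSCi gave 22.1 and 26.4 at D18, 59.8 and 45.3 at D25, and 74.1, 55.7 and 42.9 at D32. Rotating libraries were lower without overlap at D18 only. Ankrd37 in rotation had log2 fold changes of -1.14 ± 0.62, -1.06 ± 0.53, -1.57 ± 0.66 and -0.57 ± 0.57 (SE), the last being -1.27 without RWB D25 replicate 2. Ankrd37 rose from D18 to the last day by 2.11 ± 0.64 in RWB and 1.46 ± 0.53 in SSCd (edgeR adjusted p = 0.017 and 0.0387). The RWB call was lost without RWB D18 replicate 2 (1.59, adjusted p 0.194) or RWB D25 replicate 2 (1.42, 0.0951), and the SSCd call without any SSCd D18 library or SSCd D28 replicate 2 or 3 (1.06 to 1.54, adjusted p 0.079 to 0.173). From SSCd D18 to D22 it was 1.24 ± 0.53 (edgeR adjusted p = 0.145), and 1.69 with an adjusted p of 0.0277 without SSCd D22 replicate 3. Lrp2bp overlaps 6405 bases of the gene on the opposite strand.

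Replicates of a group differed in many of the genes at once. RWB D18 replicate 1 was the higher library for 9 of the 10 genes, SSCi D25 replicate 2 was the higher for 8, and SSCd D22 replicate 3 was the lowest of its group for 9. RWB D25 replicate 2 was the highest of its group for 7 genes and replicate 1 the lowest for 7. The mitochondrial share was 13.1% in RWB D25 replicate 1 and 3.25% in SSCd D22 replicate 3. Without RWB D18 replicate 1 the median rotation value of the 10 genes against SSCi at D18 was -2.90 in place of -2.28, and the D18 values against SSCd and SSCi were -2.89 and -4.01 for Egln3, -3.81 and -5.14 for Car9, -3.21 and -3.52 for Bnip3, -3.64 and -3.63 for Ndufa4l2, and -1.90 and -2.29 for Ankrd37. At the other end, the weakest median against SSCi at D18 with any 1 library left out was -1.95. The weakest D18 values against SSCd and SSCi were -1.71 and -2.83 for Egln3, and -2.61 and -3.93 for Car9. They were -2.02 and -2.33 for Bnip3, -2.49 and -2.48 for Ndufa4l2, and -0.65 and -1.05 for Ankrd37. Without the 4 libraries of high mitochondrial share the 4 medians were -1.32, -1.36, -2.31 and -0.59.

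Within the cultures, calls over time were mostly upward, with Car9 as the exception. RWB D18, SSCd D18 and SSCi D18 each serve in several of these comparisons. They also serve in the rotating against static comparisons by which the genes were chosen. From RWB D18 to D22, 1 of 10 was called (Bnip3, up), where 10.9% of all genes tested were called in either direction by edgeR. From RWB D22 to D25 none was called, against 5.2% of all genes; 3 had an unadjusted p under 0.05 (Hif1a, Vegfa and Ndufa4l2), and DESeq2 called 1. The RWB D22 to D25 count was 1 without RWB D22 replicate 3, RWB D25 replicate 1 or RWB D25 replicate 2, and with the replicate number as a block. From RWB D18 to D25, 4 of 10 were called, all up, against 28.9%. Leaving out RWB D18 replicate 2 made the RWB D18 to D25 count 0, and leaving out RWB D25 replicate 2 made it 1.

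From SSCd D18 to D22, 3 of 10 were called, all up, against 12.4% of all genes, and the count ran from 0 without SSCd D18 replicate 3 to 5 without SSCd D22 replicate 3; it was 1 without SSCd D18 replicate 1, SSCd D22 replicate 1 or SSCd D22 replicate 2. None was called from SSCd D22 to D28, against 8.05%; 3 had an unadjusted p under 0.05 (Epas1, Car9 and Ndufa4l2), and DESeq2 called 1. From SSCd D18 to D28, 6 of 10 were called, 5 up and 1 down, against 34.6%. In SSCi, 1 of 10 was called from D18 to D25 (Car9, down) against 19.8%, 3 of 10 from D25 to D32 (all up) against 8.25%, and 5 of 10 from D18 to D32 (4 up and 1 down) against 36.7%. The D25 to D32 count was 1 without any 1 of its 5 libraries, and the D18 to D32 count was 3 without SSCi D18 replicate 1. The counts from D18 to the last day lie near the shares for all genes in RWB and SSCi, and in none of the cultures are they a result about the 10 genes as a group. Over the same intervals the summed level of 6 cell cycle genes went from 1690 to 2730 CPM at D18 to between 112 and 376 CPM on the last days, and its part in the changes was not tested.

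**Figure D3:**
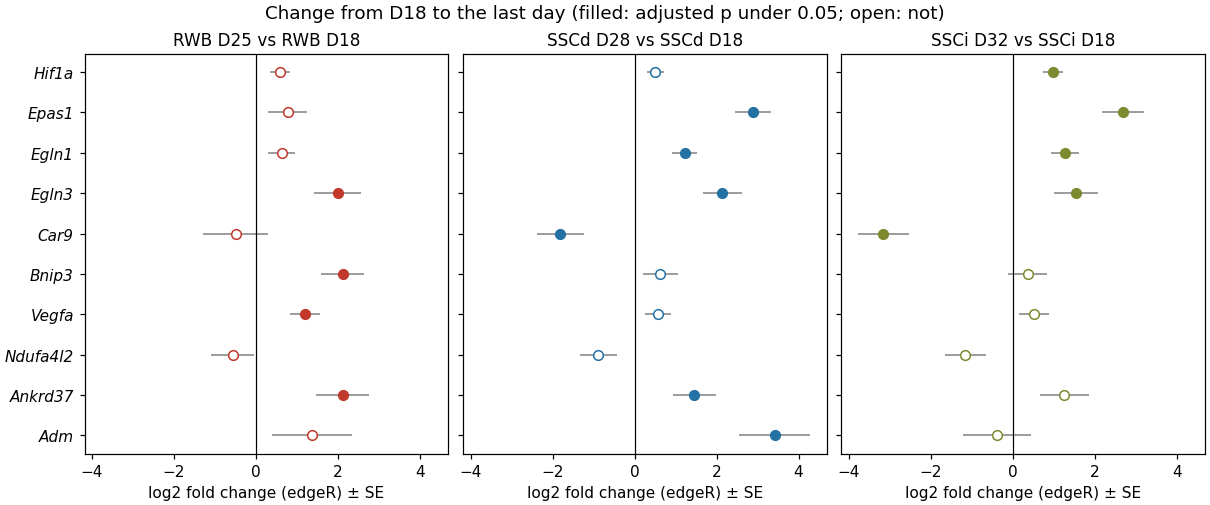
Log2 fold change from day 18 to the last day sampled in each culture, with its standard error; filled points have an edgeR adjusted p under 0.05 and open points do not. Egln3 is filled in all 3 panels, Epas1 and Egln1 in both static panels, and Car9 lies left of zero in the static panels at -1.81 and -3.16.

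Dissected against intact static organoids at day 18 gave 1 call. If the SSCd D18 libraries were taken after the day 18 change of medium, dissection and medium cannot be told apart here. Of the 10 genes, 9 had a negative log2 fold change of SSCd against SSCi, as 47.3% of all genes did, and the median was -0.48 beside 0.02. An unadjusted p under 0.05 was reached by 3 genes, Egln3 (-1.15 ± 0.51, edgeR adjusted p = 0.346), Car9 (-1.36 ± 0.59, edgeR adjusted p = 0.312) and Adm. Adm was the only 1 of 10 called, against 3.86% of all genes: it was lower in SSCd than in SSCi by a log2 fold change of -3.99 ± 0.92 (1.41 ± 0.645 against 22.7 ± 20.6 CPM, SD, n = 3 and 2; edgeR adjusted p = 0.0161). The call was lost without any SSCd D18 library (-4.40 to -3.71, adjusted p 0.0598 to 0.0867) and without SSCi D18 replicate 1 (-2.51, adjusted p 1), the library with 7070 CPM of mesenchyme markers. All 10 of those markers averaged above 1 CPM in SSCi D18. The part of those cells in the Adm value was not tested. In the same comparison Vegfd, Vegfc, Nrp1 and Flt1 of the VEGF family and receptors were also lower in SSCd, 4 of 9 genes, with Nrp1 at 12.6 ± 2.22 against 58.1 ± 67.3 CPM (SD, n = 3 and 2; log2 -2.20 ± 0.50, edgeR adjusted p = 0.0156) and overlapping libraries. Without SSCd D18 replicate 3, 0 of 16779 genes were called in this comparison, so these 4 calls were lost as well. They were also lost without SSCi D18 replicate 1, the library rich in mesenchyme markers, which leaves 1 library in that group. Without the 4 libraries of high mitochondrial share, 28 genes were called in place of 649. The part of mesenchyme cells in these 4 values was not tested.

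Transcript estimates were compared for the 3 genes whose second transcript held at least 10% of the counts. For Hif1a, the share of Hif1a-201 was 65.3% and 66.7% in RWB D18 and 62.4%, 63.2% and 62.7% in RWB D25. It was 69.7%, 71.9% and 71.3% in SSCd D18 and 60.5%, 60.5% and 57.2% in SSCd D28, and 63.6% and 68.9% in SSCi D18 and 60.5%, 67.1% and 62.8% in SSCi D32. The libraries separated in RWB and SSCd and overlapped in SSCi. The mean share fell by 5.88 percentage points from D18 to the last day (2-sided exact permutation test within cultures over 16 libraries and 2000 arrangements, p = 0.005, adjusted p = 0.0065). The other main transcript, Hif1a-202, begins at 73901375, upstream of the 73907904 start of Hif1a-201 beside which the printed Hif1a sequence lies, and averaged 26.5% ± 1.53 in SSCd D18 and 37.4% ± 2.52 in SSCd D28 (SD, n = 3). It averaged 32.7% ± 0.99 in RWB D18 and 36.1% ± 0.854 in RWB D25 (n = 2 and 3). In SSCi it averaged 30.8% ± 5.3 at D18 and 32.4% ± 3.72 at D32 (n = 2 and 3), with overlapping libraries.

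For Vegfa, the share of Vegfa-202 was 55.7% and 57.8% in RWB D18 and 58.3%, 56.1% and 50.4% in RWB D25. It was 62.4%, 64.3% and 67.4% in SSCd D18 and 59.4%, 59.3% and 56.8% in SSCd D28, and 64.6% and 63.5% in SSCi D18 and 58.8%, 60.1% and 58.3% in SSCi D32. Both static cultures separated and RWB overlapped. The mean share fell by 4.35 points (exact permutation test, p = 0.0065, adjusted p = 0.0065). For Ankrd37, the share of the coding transcript Ankrd37-201 was 64.6% and 52.6% in RWB D18 and 40.8%, 38.3% and 47.4% in RWB D25. It was 55.8%, 59.9% and 48.0% in SSCd D18 and 24.4%, 28.1% and 40.1% in SSCd D28, and 47.3% and 50.4% in SSCi D18 and 34.8%, 35.6% and 40.2% in SSCi D32. All 3 cultures separated without overlap. The mean share fell by 17.3 points (exact permutation test, p = 0.0005, the smallest these arrangements can give, adjusted p = 0.0015). The 3 retained-intron transcripts of Ankrd37 together averaged 41.6% ± 4.28 in SSCd D18 and 59.5% ± 9.19 in SSCd D28 (SD, n = 3). In RWB they averaged 41.4% ± 8.49 at D18 and 47.5% ± 4.07 at D25 (n = 2 and 3). In SSCi they averaged 43.5% ± 4.69 at D18 and 52.0% ± 6.61 at D32 (n = 2 and 3). Libraries overlapped in RWB and in SSCi. Reads of Lrp2bp, which overlaps Ankrd37, cannot be told apart from those of these transcripts if strand was not used.

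**Figure D4:**
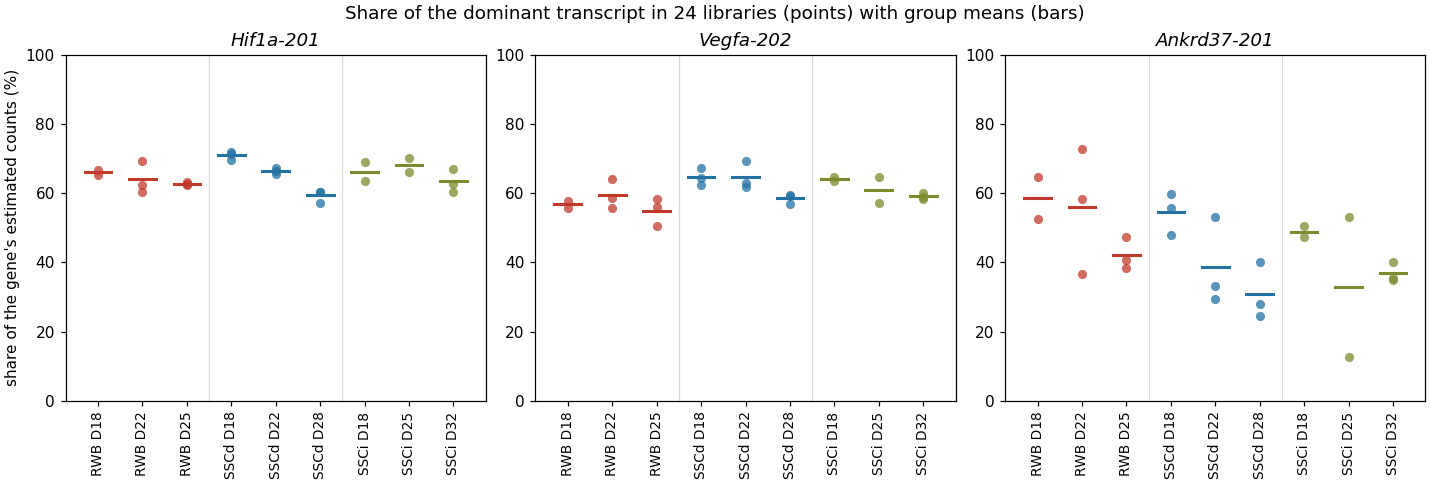
Share of each gene's estimated counts (%) assigned to its dominant transcript, by culture and day; points are libraries and bars are group means. From day 18 to the last day the mean share of Ankrd37-201 went from 54.6% to 30.9% in SSCd and from 58.6% to 42.2% in RWB.

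The gene lists were read from D18 to the last day, where 28.9%, 34.6% and 36.7% of all genes were called in RWB, SSCd and SSCi; list counts near these shares are no result about a list. Of 14 partners and regulators of HIF, 3 were called from RWB D18 to D25 (2 up), 4 from SSCd D18 to D28 (3 up) and 4 from SSCi D18 to D32 (3 up), with medians of 0.11, 0.06 and 0.03 beside 0.06, 0.02 and -0.05 over all genes. P4htm, a transmembrane prolyl hydroxylase, rose by 1.52 ± 0.25, 1.30 ± 0.21 and 1.09 ± 0.24 (edgeR adjusted p = 0.000117, 8.53e-05 and 0.00142). Cited2, which competes with HIF for the coactivators CBP and p300, rose by 0.88 ± 0.20, 0.98 ± 0.17 and 0.88 ± 0.20 (edgeR adjusted p = 0.00205, 0.000187 and 0.00146). Ep300, the gene for p300, rose in SSCd and SSCi by 0.64 ± 0.20 and 0.66 ± 0.22 (edgeR adjusted p = 0.0149 and 0.0248). Hif3a, another alpha subunit gene with products that can restrain the others, fell by 0.95 ± 0.33, 1.16 ± 0.30 and 1.37 ± 0.32 (edgeR adjusted p = 0.0357, 0.00494 and 0.00241). Unlike Hif1a and Epas1, Hif3a was lower without overlap in every rotating against static comparison, from 23.7 ± 0.125 against 60.9 ± 6.43 CPM for SSCi D18 (SD, n = 2 and 2) to 12.2 ± 3.47 against 28.6 ± 7.41 for SSCi D25 (n = 3 and 2). The shares of all genes doing so were 13.4% and 10.4% against SSCd D18 and D22. Against SSCi D18 and D25 they were 20.5% and 19.6%. The gene lists were chosen with earlier results of these data known, so these rotation values of Hif3a are a description without a test. Rotation and dissection cannot be told apart in the SSCi comparisons, nor can medium at D25 and possibly at D18.

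Of 39 other hypoxia targets outside glycolysis, 38 of which passed the filter, 11 were called from RWB D18 to D25 (9 up), 12 from SSCd D18 to D28 (all up) and 10 from SSCi D18 to D32 (6 up), with medians of 0.77, 0.55 and 0.22. These counts are near or below the shares of 28.9%, 34.6% and 36.7% for all genes. Ndrg1, a stress-responsive gene, rose by 1.77 ± 0.31, 2.34 ± 0.27 and 2.87 ± 0.33 (edgeR adjusted p = 0.00021, 1.57e-06 and 1.26e-06). Kdm4c, a histone demethylase, rose by 1.33 ± 0.22, 1.13 ± 0.19 and 1.26 ± 0.22 (edgeR adjusted p = 0.000123, 0.000112 and 0.000139). Rora, a nuclear receptor also known from photoreceptors, rose by 1.23 ± 0.17, 0.82 ± 0.15 and 1.10 ± 0.17 (edgeR adjusted p = 2.07e-05, 0.000232 and 4.36e-05). Of 19 glycolytic targets, 8, 10 and 5 were called up over the same intervals and none down, with medians of 1.01, 1.01 and 0.67, beside the same shares of all genes called in either direction.

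Genes that work with Bnip3, Vegfa and Adm were read in the same way, beside 28.9%, 34.6% and 36.7% of all genes called. Of 11 mitophagy genes, 8 were called up from RWB D18 to D25, 5 from SSCd D18 to D28 and 3 from SSCi D18 to D32, with medians of 0.99, 0.63 and 0.45 and none called down. Pink1, the kinase that marks damaged mitochondria, rose by 1.33 ± 0.30, 0.93 ± 0.25 and 1.26 ± 0.29 (edgeR adjusted p = 0.0019, 0.00733 and 0.00215). Of 9 genes of the VEGF family and receptors, 3 were called in RWB, 1 in SSCd and 3 in SSCi, near or below those shares. Flt4, a receptor for VEGF-C and VEGF-D, rose by 2.52 ± 0.78 in RWB and 3.35 ± 0.73 in SSCd (edgeR adjusted p = 0.0194 and 0.00126), while Kdr, the main receptor for Vegfa, fell in RWB by 1.23 ± 0.39 (edgeR adjusted p = 0.0203). Of 4 adrenomedullin receptor parts, Ramp3 rose in all 3 cultures by 1.73 ± 0.53, 2.52 ± 0.48 and 3.22 ± 0.58 (edgeR adjusted p = 0.0188, 0.000348 and 0.00021).

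The genes whose log2 CPM ran most like that of each member over the 24 libraries were named as a description, without a test, since libraries share culture, day and depth. Among 10875 genes, or 10876 for Car9 and Adm, the nearest to Egln3 were Ak4 (Pearson r = 0.959) and Hk2 (0.952), and the nearest to Bnip3 were Tpi1 (0.935) and Pgk1 (0.934). Gpi1 was the nearest to Vegfa (0.946) and Pfkfb3 to Adm (0.886). Cox4i2, a cytochrome oxidase subunit known to respond to low oxygen, was the nearest to Ndufa4l2 (0.954), Igfbp2 to Car9 (0.923), Ppp1r3c to Ankrd37 (0.93) and Alkbh5 to Egln1 (0.948). The nearest genes to Hif1a and Epas1 were Fam169a (0.921) and Kif13a (0.889). Between Hif1a and the other members r ranged no higher than 0.54, the value with Epas1, whereas Egln1 and Egln3 had r = 0.94. All these r values include the rotating against static difference by which the genes were chosen. Who runs with whom is therefore partly built in, and nothing is read from it.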

How the data were processed

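Poly(A) RNA from 24 libraries was prepared with TriPure and a TruSeq Stranded mRNA kit, per the labels' protocols. The authors' processing used kallisto 0.42.5, edgeR 3.13.9, limma 3.32.2 and genome build GRCm38.p5, per the submitters' processing notes; the use of strand in counting is not stated there. Per gene, the authors deposited estimated counts (expected counts, not all of them whole) for 33846 genes, and a second deposited table holds estimated counts for 105129 transcripts. The gene table is not the plain sum of the transcript table: over 1460 genes with a single transcript the median ratio was 1.013 (5th to 95th percentile 0.922 to 1.116). The deposited normalized table was not used.

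Estimated counts were rounded, filtered with filterByExpr (16792 genes kept), scaled by TMM and fitted over all 9 groups with edgeR 4.0.16 (glmQLFit, robust; R 4.3.3), with Benjamini-Hochberg adjustment over all genes kept and a threshold of 0.05; the median biological coefficient of variation was 0.256. Symbols were matched for 33331 IDs, and positions are those of GENCODE M21 (GRCm38). The 10 genes and all gene lists were chosen with earlier results of these data known, and all 10 genes are described; from each list up to 4 called genes with the smallest p in a comparison could be named. The 3 genes nearest each member by Pearson correlation were taken from those averaging 3 or more in log2 CPM, and the first 1 or 2 of them are named. Replicates differed by 9.94 to 263 times the counting variance, so no library was counted as a duplicate. Replicate numbers come from the labels and were taken to pair libraries where all 3 correlations of deviations were above 0.1: RWB D22 with SSCd D22 (0.20 to 0.43), RWB D22 with D25 (0.20 to 0.49), SSCd D18 with D22 (0.12 to 0.41) and SSCd D22 with D28 (0.20 to 0.40). Alternatives were DESeq2 1.42.0, no filter, a replicate block and leaving out each library. Transcript-summed counts, leaving out the 4 libraries with over 8% mitochondrial counts, and a crossed pairing were added after seeing the data. The procedure was tested on simulated counts.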

Additional observations from a re-analysis of the deposited data

How the results depend on the processing

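No value changed direction in a way that turned a call. Without the filter on low counts, the count of members called was 0 from RWB D18 to D22 (1 with it) and 1 from SSCi D25 to D32 (3 with it). DESeq2 called 2 from RWB D18 to D22, 1 from RWB D22 to D25 and 1 from SSCd D22 to D28, where edgeR called 1, 0 and 0. It called 5 from RWB D18 to D25, 4 from SSCd D18 to D22 and 7 from SSCd D18 to D28 (edgeR 4, 3 and 6), adding Hif1a in the first (DESeq2 adjusted p = 0.0433), Egln3 in the second (0.0384) and Hif1a in the third (0.0365). With transcript-summed counts, 0 were called from RWB D18 to D22. Without the 4 libraries of high mitochondrial share, the counts were 0 from RWB D18 to D22, 1 from SSCd D18 to D22 (3 with them), 1 from SSCd D22 to D28 and 0 between SSCd and SSCi at D18. The replicate block gave 1 from RWB D22 to D25, and medians for RWB against static culture of -1.29, -1.75, -2.23 and -0.97; where the numbers pair the libraries it changed no calls other than those given for Vegfa and Adm. Where numbers only match, the block gave Hif1a 0.64 (edgeR adjusted p = 0.0148) from RWB D18 to D25 and 0.52 (0.0182) from SSCd D18 to D28, Ndufa4l2 -1.23 (0.0458) from SSCi D18 to D32, and Egln3 1.87 (0.0505) from SSCi D25 to D32. The same and the crossed pairing of RWB D18 with SSCi D18 each called 0 of 15030 genes in a fit of these 4 libraries.

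Leaving out each library in turn, the 4 rotation medians ranged from -1.75 to -0.98, from -1.96 to -1.42, from -2.90 to -1.95 and from -1.31 to -0.59. The counts called ranged from 0 to 1 for RWB D18 to D22, 0 to 1 for RWB D22 to D25, 0 to 5 for RWB D18 to D25, 0 to 5 for SSCd D18 to D22, 0 to 0 for SSCd D22 to D28 and 4 to 6 for SSCd D18 to D28. They ranged from 0 to 1 for SSCi D18 to D25, 1 to 1 for SSCi D25 to D32, 3 to 4 for SSCi D18 to D32 and 0 to 1 for SSCd against SSCi at D18. A group left with 1 library was assumed to vary like the others. Transcript shares changed by -6.76 to -4.99 points for Hif1a, -4.91 to -3.59 for Vegfa and -19.3 to -15.3 for Ankrd37. The cause of each lost call was not tested. Depth limits Car9, with 703 estimated counts in all, and Adm, with 3490.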
